A study of Homo sapiens with 24 samples.

Results

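The APOBEC3 cytidine deaminases were examined across 2 breast cancer cell lines treated with a CDK4/6 inhibitor, an anti-oestrogen or both. The 7 members, APOBEC3A, APOBEC3B, APOBEC3C, APOBEC3D, APOBEC3F, APOBEC3G and APOBEC3H, were chosen by name from the 59609 gene symbols of a 3′ RNA-seq count table, and each had 1 row in it. MDA-MB-231, an ER-negative mesenchymal line, and MDA-MB-453, an ER-negative line with amplified ERBB2, each received 500 nM abemaciclib, 5 nM fulvestrant, the combination of these doses or the DMSO vehicle over 5 days. All 8 groups were labelled as wild-type and held 3 libraries each. Each line is a single established model, and it was grown in its own medium (RPMI-1640 for MDA-MB-231 and DMEM for MDA-MB-453), so that line and medium cannot be told apart. The study's methods call the replicates biologically independent and describe the experiment as run a single time in these lines, so p-values measure the spread between libraries of that run.

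APOBEC3 enzymes convert cytosine to uracil in single-stranded DNA and are known as restriction factors, proteins that block retroviruses and retrotransposons. APOBEC3A, APOBEC3C and APOBEC3H have a single deaminase domain, whereas APOBEC3B, APOBEC3D, APOBEC3F and APOBEC3G have tandem domains. APOBEC3A and APOBEC3B enter the nucleus and are best known in breast cancer as sources of C-to-T and C-to-G mutation. APOBEC3B is a cell cycle-linked gene that E2F complexes repress when Rb family proteins are active, and several other members are known interferon-stimulated genes. Abemaciclib inhibits CDK4 and CDK6 and so keeps Rb in its active, hypophosphorylated form, and fulvestrant causes degradation of the oestrogen receptor.

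The 24 libraries held 2873558 to 4158762 counts. A gene with no read in a group was set against a floor of 3 counts over its 3 libraries, which is 0.248 to 0.298 CPM, where CPM is the count relative to the TMM-scaled size of its library. Mitochondrially encoded transcripts took 8.69% to 9.24% of counts in the MDA-MB-231 libraries without abemaciclib and 11.1% to 14.0% in those with it, against 13.3% to 16.0% and 20.8% to 25.5% in MDA-MB-453. The lines were checked against their markers. VIM, CD44, CAV1, AXL and FOSL1 each reached a mean of 10 CPM in untreated MDA-MB-231 cells, and 4 of these 5 were at 0 in all 12 MDA-MB-453 libraries. Of 6 markers of MDA-MB-453, 5 reached this mean in untreated cells of that line and 4 did in MDA-MB-231, where the list summed to between 303.4 and 467.3 CPM per library against 1516 to 2384 CPM in MDA-MB-453. Leukocytes express many APOBEC3 genes. Their 11 markers summed to between 0 and 0.463 CPM per MDA-MB-231 library and to at most 0.887 CPM per MDA-MB-453 library, with CD3E, CD2, CD14, MS4A1 and NKG7 at 0 in every library. The 6 stromal markers summed to between 1.77 and 7.77 CPM in MDA-MB-231 libraries, and to between 18.7 and 55.9 CPM in those of MDA-MB-453, mostly from COL1A1.

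The members form a tandem cluster on the plus strand of chromosome 22, in the order A, B, C, D, F, G and H. In GRCh38 the cluster runs from the start of APOBEC3A at position 38952741 to the end of APOBEC3H at position 39104067. The 2 members on which most results turn are APOBEC3C, at chr22:39014257-39020352, whose last exon of 2084 bases holds the 3′ end, and APOBEC3F, at chr22:39040604-39055972, with a last exon of 3396 bases. APOBEC3B lies at chr22:38982347-38992804. Because a 3′ library reads only the end of a transcript, the last 300 exonic bases of each member were compared with the annotation and the genome. APOBEC3A, APOBEC3C, APOBEC3F, APOBEC3G and APOBEC3H shared none of these bases with exons of another gene, and each of their 21 overlapping 100-base windows had 1 exact match in the genome. APOBEC3D shared 299 of 300 bases with a readthrough gene on the same strand. Of 484 genes outside the family with at least 90% of this stretch shared on the same strand, 8.47% averaged at least 10 CPM. Of 16355 genes with an unshared end, 41.9% did. Whether such genes lost reads or were less expressed was not tested. For APOBEC3D, low expression and a loss of reads to the readthrough gene cannot be told apart. APOBEC3B shared 102 bases with APOBEC3B-AS1 on the other strand, and APOBEC3B-AS1 was at 0 in all 24 libraries. All 21 windows of APOBEC3B had a second exact match on an alternate contig. TUBB, whose end has 6 such copies, averaged 2939 CPM. Of 163 genes of the major histocompatibility complex with an alternate copy of their last 100 bases, 57 averaged at least 10 CPM. Genes with alternate copies did receive counts in this table, but whether APOBEC3B lost reads to its copy was not tested.

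APOBEC3 reads came from few members, and the lines differed in which ones. Over its 12 libraries, MDA-MB-231 held 4053 counts of APOBEC3C, 134 of APOBEC3F, 32 of APOBEC3B, 4 of APOBEC3H and 2 of APOBEC3D, and none of APOBEC3A or APOBEC3G. MDA-MB-453 held 35 counts of APOBEC3B, 9 of APOBEC3F and 3 of APOBEC3A, and none of the other 4 members. The low-count filter kept 2 of 7 members in MDA-MB-231, APOBEC3C and APOBEC3F, and none in MDA-MB-453. APOBEC3F passed it only through the groups in which it was high. Its calls against DMSO and its differences between the lines are therefore given below also from the fit with no filter on low counts. In MDA-MB-231 that fit had 171176 degrees of freedom for APOBEC3F, against 42.6 in the main fit. It thus drew the spread almost wholly from all genes pooled, and its p are no separate support. As these are bulk libraries, fewer cells expressing a gene and less of its RNA per cell cannot be told apart.

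**Figure D1:**
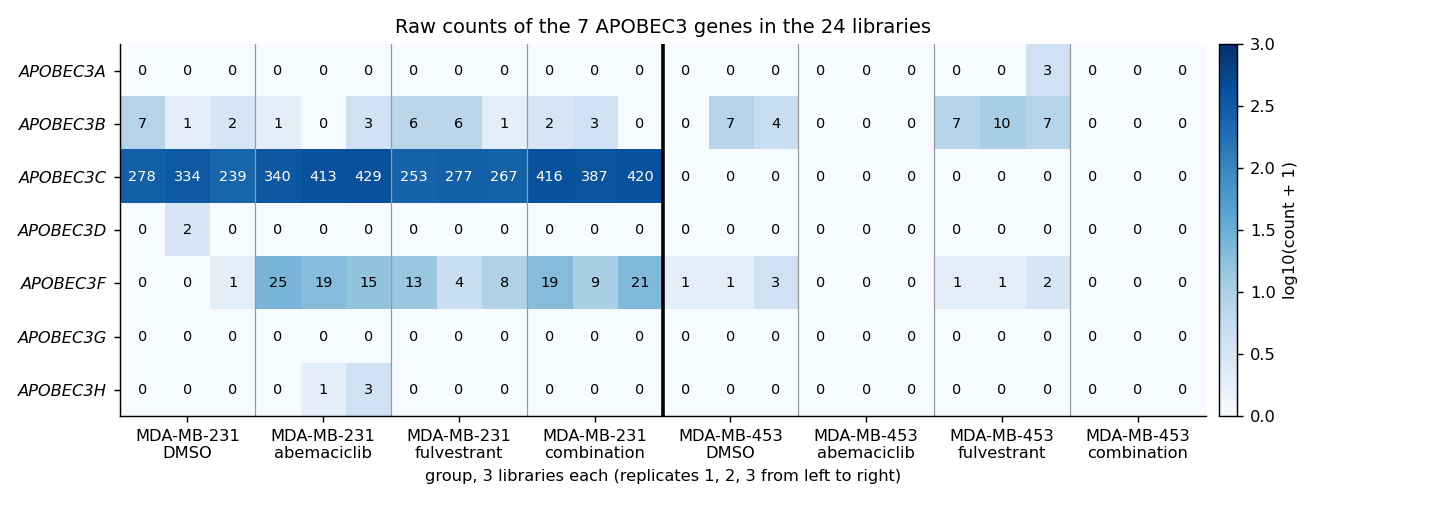
Raw counts of the 7 APOBEC3 genes (rows) in the 24 libraries (columns, grouped by line and treatment, 3 libraries each), with the shade giving log10(count + 1). APOBEC3C fills all 12 MDA-MB-231 libraries with 239 to 429 counts and is at 0 in all 12 of MDA-MB-453, and APOBEC3B and APOBEC3F are at 0 in the 6 MDA-MB-453 libraries with abemaciclib.

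APOBEC3C, a single-domain member and a restriction factor for simian retroviruses and LINE-1 elements, was the member with a steady signal, and it was higher with abemaciclib in MDA-MB-231. Its level was 82.7, 96.1 and 70.4 CPM in the 3 DMSO libraries and 94.8, 122.6 and 114.2 CPM in the 3 abemaciclib libraries. It was 71.3, 77.3 and 77.2 CPM with fulvestrant and 109.4, 89.6 and 106.0 CPM with the combination. Both groups with abemaciclib lay above the fulvestrant group with no overlap, and each overlapped the DMSO group, since 1 DMSO library reached 96.1 CPM. Group means were 83.1 ± 12.9 CPM with DMSO, 110.5 ± 14.3 with abemaciclib, 75.3 ± 3.47 with fulvestrant and 101.7 ± 10.5 with the combination (SD, n = 3 each).

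In the edgeR quasi-likelihood model of the line, abemaciclib raised APOBEC3C 1.33-fold with a 95% interval from 1.11 to 1.60, or by 0.41 on the log2 scale with an SE of 0.13 (adjusted p = 0.0112). With APOBEC3F, it was 1 of 2 members called in this comparison, both of them higher. Across all 11314 genes tested, 33.7% were called and 16.9% were called higher, so a call in this comparison is common. The APOBEC3C call rested on single libraries. It was lost without DMSO replicate 3 (log2 fold change 0.32, adjusted p = 0.0961) and without abemaciclib replicate 2 (0.33, adjusted p = 0.0782). The mitochondrial share moved with abemaciclib, and with mitochondrially encoded genes left out before scaling the change was 0.43 (adjusted p = 0.00880).

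The combination gave a similar pattern for APOBEC3C. Against DMSO, its log2 fold change was 0.29 (SE 0.13, 95% interval 0.03 to 0.55), which missed the threshold at an adjusted p of 0.0739, in a comparison in which 35.4% of genes were called and 17% were called higher, APOBEC3F among the latter. It passed with only these 2 groups in the model (0.31, adjusted p = 0.0311). Against fulvestrant, the combination raised APOBEC3C by 0.44 (SE 0.13, adjusted p = 0.00714, 36.1% of genes called and 17.6% higher), the 1 member called there. Fulvestrant alone gave −0.14 against DMSO (95% interval −0.41 to 0.12, adjusted p = 0.866). The combination differed from abemaciclib by −0.12 (−0.38 to 0.13, adjusted p = 0.821), and the interaction, by which the combination departs from adding both single-drug changes, was 0.02 (−0.35 to 0.39, adjusted p = 0.980). The comparisons with DMSO share the same 3 control libraries. In MDA-MB-453 no APOBEC3C read was counted in any library, so that no treatment effect could be estimated there. Under DMSO, its level was at least 290-fold higher in MDA-MB-231, with 851 counts against the floor of 3 (adjusted p = 1.05e-23, model of all 24 libraries), in a comparison that called 69.8% of 12750 genes, 35.6% in this direction.

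APOBEC3F, a tandem-domain member that HIV-1 Vif targets for degradation, was near 0 in untreated MDA-MB-231 cells and was counted in every treated library. The DMSO libraries held 0, 0 and 1 counts and the abemaciclib libraries 25, 19 and 15 counts, which is 6.97, 5.64 and 3.99 CPM. The combination libraries held 19, 9 and 21 counts, or 4.99, 2.08 and 5.30 CPM, and the fulvestrant libraries 13, 4 and 8 counts, or 3.66, 1.12 and 2.31 CPM. All 9 treated libraries thus lay above all 3 DMSO libraries. Among the treated groups, fulvestrant overlapped the combination but not abemaciclib, whose lowest library of 3.99 CPM lay just above the highest of 3.66 CPM with fulvestrant.

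APOBEC3F rose with abemaciclib (adjusted p = 1.65e-05) and with the combination (adjusted p = 7.87e-05) against DMSO. With no filter, over 21397 genes, these adjusted p were 2.27e-07, where 8.79% of genes were called higher, and 3.99e-06, where 9.24% were. Because the DMSO group held 1 count in all, the size of the change is poorly fixed: the ratio of summed, scaled counts was 56.3 with abemaciclib (exact 95% counting interval 9.73 to 2263) and 41.5 with the combination (7.11 to 1672). The fulvestrant ratio was 24.2 (3.95 to 992), yet its adjusted p was 0.274, in a comparison in which edgeR called 0 of 11314 genes (0%), with 799 genes at an unadjusted p under 0.05, and DESeq2 also called 0. With no filter on low counts, the edgeR adjusted p of APOBEC3F with fulvestrant was 0.0669, where 14 of 21397 genes were called. With fulvestrant replicate 1 left out, 205 genes were called, and the adjusted p of APOBEC3F over the 6 single-library omissions ran from 0.0988 to 0.623. The combination differed from abemaciclib by a log2 fold change of −0.43 (95% interval −1.54 to 0.69, adjusted p = 0.863, 0.0265% of genes called) and from fulvestrant by 0.79 (−0.41 to 2.00, adjusted p = 0.319). The interaction had an adjusted p of 0.0860, where 0.124% of genes were called, and of 0.0276 with no filter on low counts, where 0.131% were called in its direction. It was 0.0382 without abemaciclib replicate 3. The fitted direction of the interaction was negative: the combination level lay below the product of the single-drug changes. This direction follows from the DMSO group of 1 count, which makes both single-drug changes large. No conclusion on how the drugs act together is drawn from it.

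In MDA-MB-453, APOBEC3F was counted only in libraries without abemaciclib, the opposite of its order in MDA-MB-231. The DMSO libraries held 1, 1 and 3 counts and the fulvestrant libraries 1, 1 and 2, whereas all 6 libraries with abemaciclib, alone or combined, held 0. The level was 0.480 ± 0.335 CPM with DMSO and 0.370 ± 0.195 CPM with fulvestrant (SD, n = 3). As APOBEC3F failed the filter in this line, libraries with and without abemaciclib were compared by an exact 2-sided permutation test within each fulvestrant level, a test chosen after the counts were seen. This exact permutation test gave p = 0.005, the smallest that its 400 arrangements allow, unadjusted and 1 of 4 such tests. No edgeR fit called APOBEC3F within this line: with no filter, its adjusted p against DMSO was 0.291 with abemaciclib (95% interval of the log2 fold change −8.25 to 0.57) and 0.277 with the combination, and in the model of all 24 libraries it was 0.0764 and 0.0726. The counts are too few to give the size of a difference. In the model of all 24 libraries, the abemaciclib effect on APOBEC3F differed between the lines (adjusted p = 0.000457, 20.7% of genes called and 13% in this direction), as did the combination effect (adjusted p = 0.000874, 17.7% called and 11.6% in this direction). With no filter these adjusted p were 0.000166 and 0.000433, where 6.33% and 5.96% of genes were called in this direction. The 24-library model also kept APOBEC3F only through the treated MDA-MB-231 groups, and the differences rest on DMSO groups of 1 and 5 counts. The DMSO levels of APOBEC3F were not shown to differ between the lines (adjusted p = 0.189).

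APOBEC3B, the nuclear member tied to the cell cycle, had few reads in both lines. In MDA-MB-453 the DMSO libraries held 0, 7 and 4 counts and the fulvestrant libraries 7, 10 and 7. No read was counted in the 3 abemaciclib or the 3 combination libraries. Means were 1.03 ± 0.977 CPM with DMSO and 2.15 ± 0.363 CPM with fulvestrant (SD, n = 3), so 1 DMSO library shared the value of 0 with the groups given abemaciclib, and no fulvestrant library did. Setting the summed counts against the floor, with no allowance for counting error in the higher group, APOBEC3B was at least 3.53-fold lower with abemaciclib and at least 3.56-fold lower with the combination than with DMSO, and at least 7.29-fold lower with the combination than with fulvestrant.

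The exact permutation test of MDA-MB-453 libraries with against without abemaciclib gave p = 0.02 for APOBEC3B, unadjusted and 1 of 4 such tests. It was chosen after the counts were seen. It set 0 counts in 6 libraries against 35 in the other 6, with 24 of the 35 under fulvestrant alone. On the same counts and with no filter, the edgeR model called APOBEC3B lower in the combination than in fulvestrant (adjusted p = 0.00655, 10.5% of genes called lower). Against DMSO it called APOBEC3B lower with abemaciclib (adjusted p = 0.0447, 9.7% of genes called lower) and with the combination (adjusted p = 0.0416, 10.4% called lower). APOBEC3B failed the filter in this line, so these calls have no counterpart in the main fit and are no separate support. The fulvestrant to DMSO count ratio was 2.05 (0.966 to 4.63). In MDA-MB-231 the same gene was not at 0 in any group: the DMSO libraries held 7, 1 and 2 counts, abemaciclib 1, 0 and 3, fulvestrant 6, 6 and 1, and the combination 2, 3 and 0. These groups overlapped. The DMSO to abemaciclib ratio was 2.62 (0.755 to 11.4) and that to the combination 2.36 (0.736 to 8.81), and the permutation test over libraries gave p = 0.095, from 9 counts with abemaciclib and 23 without. The difference between the lines in the abemaciclib effect was not called for APOBEC3B with no filter (adjusted p = 0.387), so a decrease in MDA-MB-453 that MDA-MB-231 lacks was not shown.

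**Figure D2:**
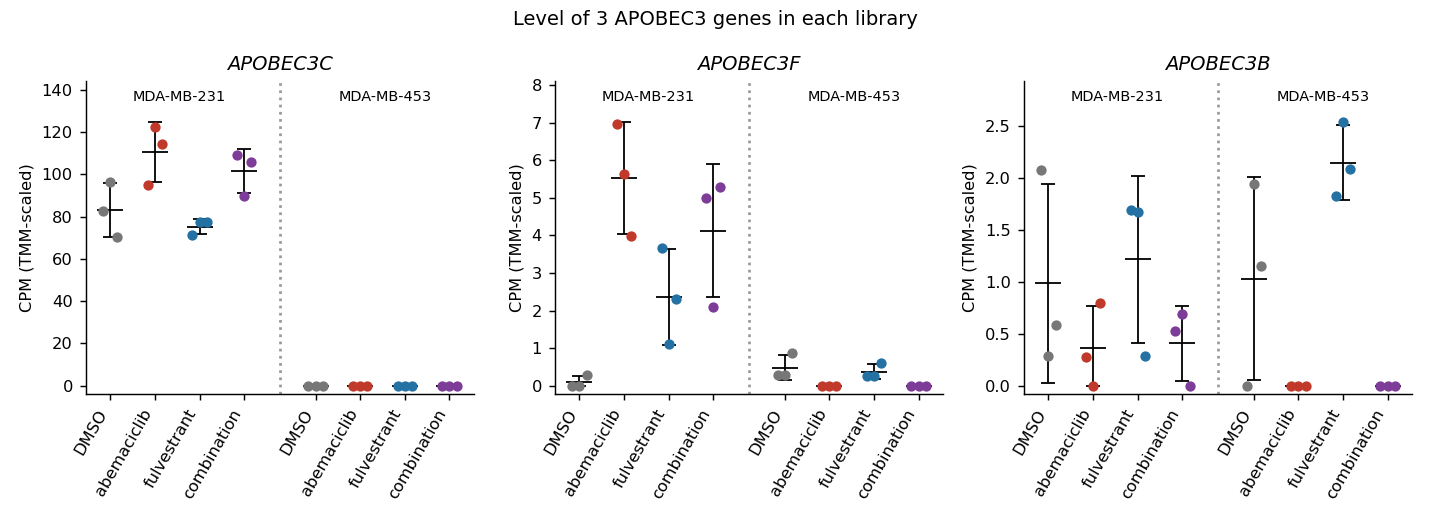
Level of APOBEC3C, APOBEC3F and APOBEC3B in CPM on TMM-scaled library sizes (vertical axes, which differ between panels), in the 8 groups; points are libraries, horizontal bars are means and whiskers are SD over 3 libraries, cut at 0. APOBEC3C is highest with abemaciclib at 110.5 CPM, APOBEC3F lies above DMSO in all 9 treated MDA-MB-231 libraries, and both APOBEC3F and APOBEC3B are at 0 in the MDA-MB-453 libraries with abemaciclib.

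**Figure D3:**
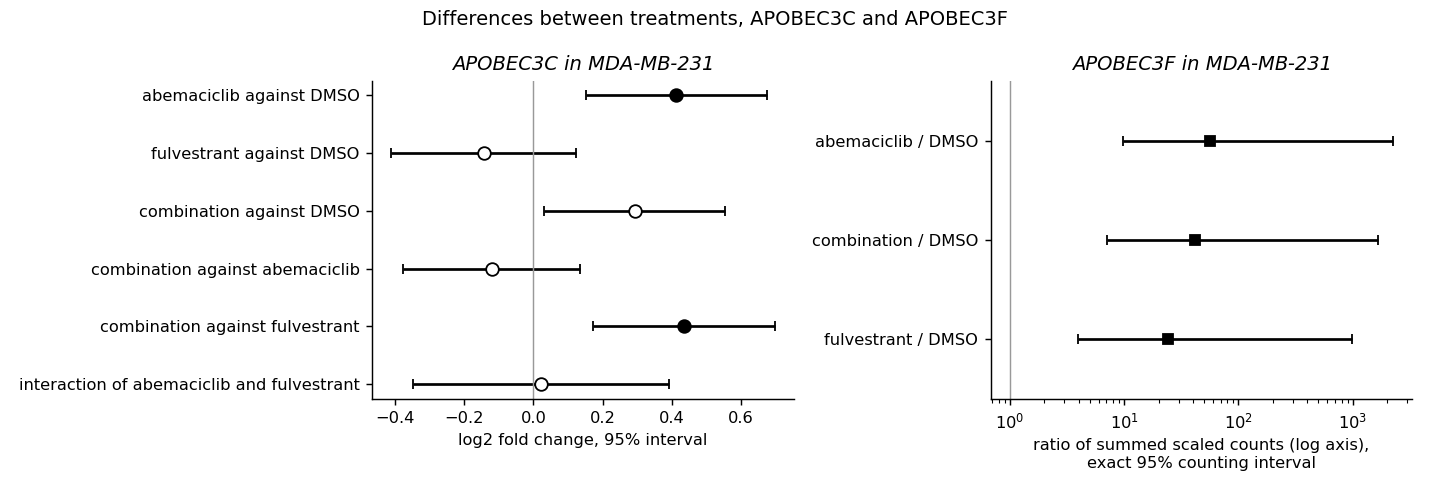
Left, log2 fold changes of APOBEC3C in MDA-MB-231 with 95% intervals from edgeR, filled where the adjusted p was below 0.05; the abemaciclib change of 0.41 and the combination to fulvestrant change of 0.44 are filled. Right, ratios of summed APOBEC3F counts to DMSO on a log axis with exact 95% counting intervals, which run over more than 100-fold because the DMSO group held 1 count.

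The other 4 members were at or near 0. APOBEC3G, a tandem-domain member and the best-known HIV-1 restriction factor, had no read in any of the 24 libraries, which allows a level of up to 0.248 to 0.298 CPM per group. APOBEC3A, the single-domain nuclear mutator, had 3 counts, all in fulvestrant replicate 3 of MDA-MB-453. APOBEC3D had 2 counts, both in DMSO replicate 2 of MDA-MB-231. APOBEC3H, whose protein stability is known to vary between haplotypes, had 0, 1 and 3 counts with abemaciclib in MDA-MB-231 and none elsewhere, and its permutation test gave p = 0.4. At this depth no difference between treatments was detectable for these members.

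Beyond the cluster, the relatives APOBEC1, APOBEC2 and APOBEC4 were at 0 in all 24 libraries. The genes beside the cluster were mostly measured in both lines. Of 7 neighbours in the table, 5 could be tested in MDA-MB-231, of which 2 were called higher with abemaciclib, and 6 in MDA-MB-453, of which 1 was called lower. Over all genes tested, 33.7% and 36% were called in these comparisons, so the neighbours' counts are near or below the background. NPTXR, a neuronal pentraxin receptor, rose with abemaciclib in MDA-MB-231, from 12.8 ± 4.05 to 41.5 ± 2.39 CPM (log2 fold change 1.69, SE 0.21, adjusted p = 1.14e-08), and was 14.6 ± 6.31 and 13.3 ± 4.64 CPM in MDA-MB-453 (adjusted p = 0.775). RPL3, a ribosomal protein gene with processed copies that could share reads, rose in MDA-MB-231 by 0.35 (SE 0.09, adjusted p = 0.00221) and had 0.09 in MDA-MB-453 (adjusted p = 0.466). SYNGR1, a synaptic vesicle protein gene, fell in MDA-MB-453 from 16.5 ± 1.60 to 5.64 ± 2.50 CPM (log2 fold change −1.53, adjusted p = 0.000205), and had 0.27 in MDA-MB-231 (adjusted p = 0.661).

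The Polycomb genes CBX6 and CBX7 also flank the cluster and were not called in either line. CBX6 had log2 fold changes of 0.21 in MDA-MB-231 (adjusted p = 0.05002, just above the threshold) and 0.17 in MDA-MB-453 (adjusted p = 0.133). CBX7 had 0.27 (adjusted p = 0.514) and −0.31 (adjusted p = 0.321). PDGFB, a growth factor gene, averaged 19.7 ± 2.68 CPM in MDA-MB-453 under DMSO and 22.2 ± 0.750 CPM with abemaciclib (adjusted p = 0.604), and had too few reads for a test in MDA-MB-231. In MDA-MB-453, where APOBEC3C had 0 counts, CBX6 averaged 320.2 ± 21.5 CPM and RPL3 763.1 ± 11.1 CPM under DMSO. Both lie outside the cluster, and why APOBEC3C had no reads was not tested.

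Gene lists for pathways related to the APOBEC3 family were described beside the members for abemaciclib against DMSO. Some hold possible regulators, and others hold further restriction factors or genes that handle uracil in DNA. In MDA-MB-231, 28 of 32 cell cycle genes under E2F and DREAM control were called lower and none higher, with a median log2 fold change of −0.91 where the median of all genes was −0.00053 and 33.7% of all genes were called. RRM2, the small subunit of ribonucleotide reductase, fell from 451.3 ± 21.5 to 134.3 ± 7.18 CPM, CCNA2 (cyclin A2) from 108.4 ± 10.3 to 36.2 ± 1.73 CPM and E2F2 from 15.4 ± 3.64 to 3.85 ± 0.532 CPM. Of 21 subunits of the repressor complexes that act on E2F sites, 7 were lower and 1 higher (median −0.32). Of all 11314 genes, 33.7% were called in either direction and 1907 were called lower. The MuvB subunit LIN52 (−1.53), the pocket protein RBL1 (−1.16) and PCGF6 (−1.02) were among the subunits called lower.

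The interferon-stimulated genes moved the other way in MDA-MB-231. Of 30 tested, 13 were called higher and 2 lower, with a median of 0.80, where 33.7% of all genes were called and 16.9% were called higher. UBE2L6, the conjugating enzyme for ISG15, rose from 5.22 ± 3.87 to 24.9 ± 4.07 CPM and PSMB9, an immunoproteasome subunit, by 2.09 on the log2 scale, whereas HERC5, an ISG15 ligase, fell from 22.2 ± 4.02 to 7.17 ± 3.39 CPM. Among interferons, receptors and nucleic acid sensors, 3 of 14 were higher and 1 lower (median 0.14), against the same 33.7% called and 16.9% called higher. STING1, the adaptor for cytosolic DNA, rose by 1.16 and MAVS, the adaptor for RNA sensors, by 0.32, and CGAS, the DNA sensor itself, fell by 1.14 on the log2 scale.

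Restriction factors outside the family were split in MDA-MB-231, with 5 of 18 higher and 5 lower (median 0.15), against 33.7% of all genes called. SLFN5 rose from 2.73 ± 1.32 to 27.96 ± 1.34 CPM, IFITM2 from 239.3 ± 11.2 to 474.4 ± 17.2 CPM and IFITM3 from 272.3 ± 0.773 to 526.3 ± 40.5 CPM; the last pair are near-identical copies, between which reads may have been divided. The enzymes that remove or exclude the uracil that APOBEC3 enzymes make were called lower in 10 of 20 cases and higher in none (median −0.33), where 16.9% of all genes were called lower. DUT, the dUTPase, fell from 316.6 ± 14.8 to 160.9 ± 8.07 CPM, PARP1 from 355.8 ± 21.5 to 200.1 ± 21.9 CPM and EXO1 from 22.8 ± 3.29 to 10.7 ± 3.19 CPM. Of 14 NF-kB genes, 3 were higher and 2 lower (median 0.21), a share near that of all genes, with NFKB2 at 0.88, NFKB1 at −0.82 and PRKCA at 0.67. The APOBEC3C change of 0.41 thus lay below the median of the interferon-stimulated genes and above those of the other lists; these medians are descriptions, with no test of a list.

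In MDA-MB-453 the cell cycle genes fell further and the interferon-stimulated genes did not rise as a list. All 32 cell cycle genes were called lower, where 36% of 11080 genes were called, with a median of −4.09, or −3.94 with the 4 members under the floor set to their bound. The mitotic kinase PLK1 fell from 155.3 ± 10.8 to 0.490 ± 0.429 CPM and MYBL2, the B-MYB subunit of the activating MuvB complex, from 386.2 ± 4.02 to 1.87 ± 0.612 CPM. MCM10, a replication initiation factor, went from 510 counts to 0, at least 164-fold lower. The repressor complex list had 6 of 20 lower and 2 higher (median −0.26), with LIN9 at −1.20, TFDP1 at −1.07 and TFDP2 at −0.87.

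Of 16 interferon-stimulated genes tested in MDA-MB-453, 1 was higher and 3 were lower (median −0.38), where 36% of all genes were called. OAS3, an oligoadenylate synthetase, fell from 20.7 ± 3.09 to 1.85 ± 0.535 CPM and ISG20, an exonuclease, from 10.2 ± 0.383 to 3.05 ± 0.647 CPM, whereas DDX58, which encodes the RNA sensor RIG-I, rose by 0.68. Sensing and receptor genes had 1 of 10 higher, IFNGR1 at 1.55, and 1 lower (median 0.11). Restriction factors outside the family had 5 of 19 higher and 6 lower (median 0.07): SLFN5 rose by 2.06 and ZC3HAV1, the zinc-finger antiviral protein, by 0.88, and RNASEH2B fell by 1.91. Uracil and abasic site genes had 11 of 20 lower and 1 higher (median −0.29), with EXO1 at −4.68, DUT at −2.06 and the DNA ligase LIG1 at −2.05. The NF-kB list had 4 of 11 higher and 1 lower (median 0.38), with NFKB2 at 0.96, IKBKB at 0.76 and PRKCD at 0.45. All 32 cell cycle genes and 10 of 32 interferon-stimulated genes had an abemaciclib effect that differed between the lines, against 20.7% of all genes.

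**Figure D4:**
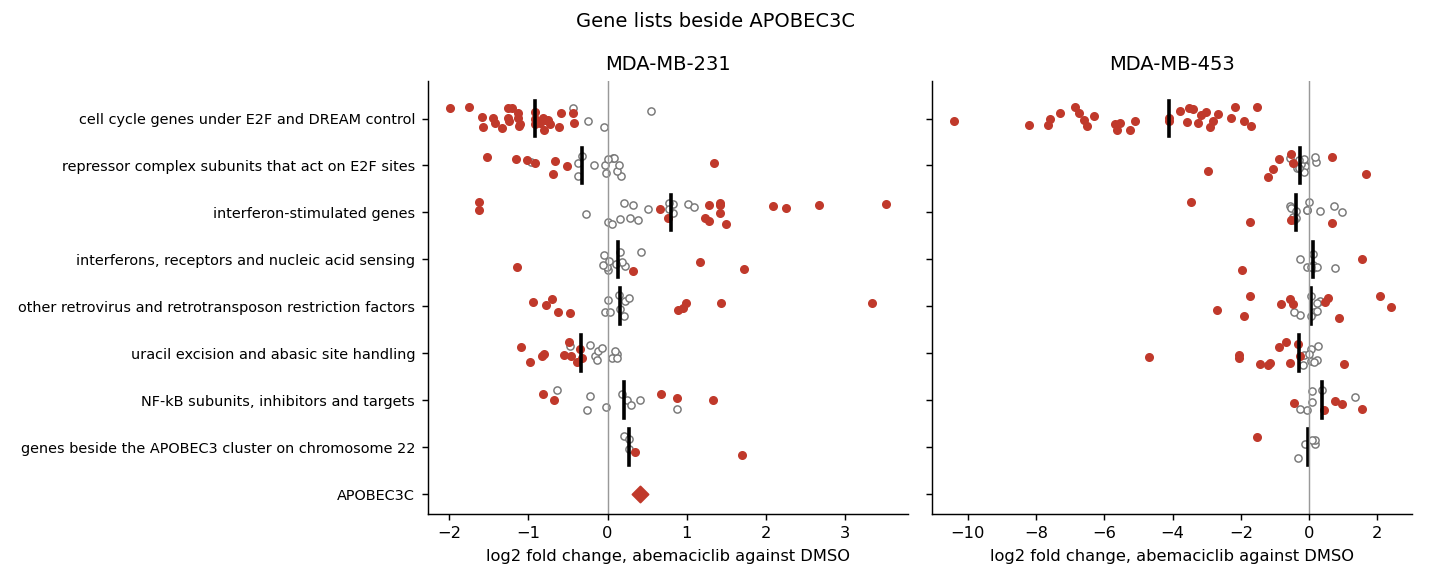
Log2 fold changes with abemaciclib against DMSO of the tested genes of 8 lists (points, red where called; black bars are list medians), with APOBEC3C as a diamond in MDA-MB-231; the horizontal scales differ between the lines, and values of genes at or near 0 depend on the prior count of the model. Cell cycle genes lie to the left in both lines (medians −0.91 and −4.09), and interferon-stimulated genes lie to the right in MDA-MB-231 alone of the 2 panels (medians 0.80 and −0.38).

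With fulvestrant alone none of the lists moved in MDA-MB-231, where edgeR and DESeq2 called 0 genes in the whole table, and 3 list genes were called in MDA-MB-453, 2 of 32 cell cycle genes and 1 of 20 repressor subunits, all higher (1.41% of all genes called). With the combination, list counts lay close to those with abemaciclib. In MDA-MB-231, 29 of 32 cell cycle genes were lower, 14 of 30 interferon-stimulated genes were higher and 2 lower (median 0.59), and 9 of 20 uracil and abasic site genes were lower. In MDA-MB-453, where 37.6% of genes were called, all 32 cell cycle genes were lower, as were 4 of 16 interferon-stimulated genes, with 1 higher.

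APOBEC3C was the only member with enough reads to look for genes of a like pattern. Among 8029 genes averaging at least 10 CPM in MDA-MB-231, its level across the 12 libraries, as log2(CPM + 1), was most like that of FAM50A, a nuclear protein gene (Pearson r = 0.929, Spearman rho = 0.902). ACADVL, the very long-chain acyl-CoA dehydrogenase, had r = 0.929 and rho = 0.902. AP1S2, a subunit of the AP-1 clathrin adaptor, had r = 0.920 and rho = 0.909. These are descriptions over 12 libraries that share treatment groups, and r is the highest of many. With the group means removed, r was 0.917 for FAM50A, 0.799 for ACADVL and 0.700 for AP1S2. These values come from the same 12 libraries by which the genes were picked, so they are no separate support for a shared pattern. In all 3 genes the 6 libraries with abemaciclib lay above the 6 without it. FAM50A ran from 49.4 to 63.4 CPM with the drug and from 29.4 to 39.998 CPM without. How many of the 8029 genes separate in this way was not counted. Abemaciclib against DMSO called 33.7% of 11314 genes in this line. The 3 genes were picked for likeness to APOBEC3C, itself higher with abemaciclib, so their separation is no separate finding.

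**Figure D5:**
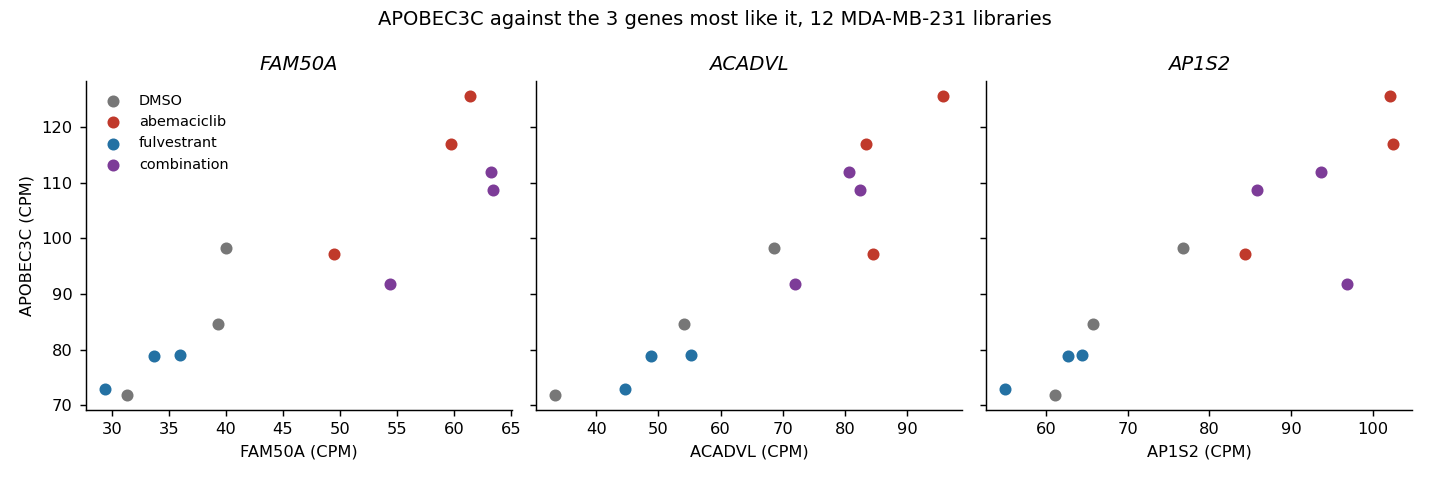
APOBEC3C (vertical axis) against FAM50A, ACADVL and AP1S2 (horizontal axes) in CPM scaled within the line, one point per MDA-MB-231 library, coloured by treatment. The 6 libraries with abemaciclib lie to the right of the other 6 in each panel. On the APOBEC3C axis 1 DMSO library overlaps them. The genes were picked by r over these same libraries, so this separation is no separate finding. On the log2(CPM + 1) scale r is 0.929, 0.929 and 0.920.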

How the data were processed

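Total RNA from cell pellets was made into QuantSeq 3′ FWD libraries and sequenced as single-end reads. Per the labels and the study's methods, the authors trimmed reads, aligned them to hg38 with STAR and counted them per gene with featureCounts. The deposited table holds raw counts, whole numbers with no normalisation, per gene symbol. The strand setting, the handling of reads with several alignments and any removal of duplicates are not given in the sources used here, so counting intervals and floors cover counting error only. The table has 1 row that names no gene, with 0 counts.

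Testing used edgeR 4.0.16 under R 4.3.3, with filterByExpr (minimum count 10), TMM scaling and quasi-likelihood fits (glmQLFit, glmQLFTest) to the 12 libraries of a line, or to all 24 for differences between lines. A gene was called when its p, adjusted over every tested gene by the Benjamini-Hochberg method, was below 0.05; tests are 2-sided. CPM are on TMM-scaled library sizes, with the SD over 3 libraries, and intervals are at 95%. Members under the filter with more than 3 counts in a group were compared by exact permutation over libraries, a test added after the counts were seen. Alternatives were DESeq2 1.42.0 and its size factors, no filter, a replicate block, mitochondrial genes left out, other sets of libraries, unscaled totals, a pseudocount of 0.1 in place of 1 and omission of each library.

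Replicates of a group differed by more than counting noise in all 24 pairs (chi-square per degree of freedom 2.64 to 8.65). Positions and 3′ ends were read from GENCODE 44 on GRCh38, and copies of 100-base windows were sought with blastn 2.17.0. A few genes of the marker and relative lists are not reported here. The members and gene lists were chosen with earlier results of these data known. Named were all 7 members; from each list and line, the 3 called genes with the largest absolute change under abemaciclib that averaged at least 10 CPM in either group; relatives and neighbours; and the 3 genes with the highest r with each member averaging at least 5 CPM.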

Additional observations from a re-analysis of the deposited data

Results flagged for a closer look

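These results had an effect of abemaciclib, or of the combination, that differed between the lines by the test of the difference in the model of all 24 libraries, which called 20.7% and 17.7% of all genes. APOBEC3F differed with abemaciclib (adjusted p = 0.000457) and with the combination (adjusted p = 0.000874); it rose in MDA-MB-231 and went from 5 counts to 0 in MDA-MB-453. It entered that model through the treated MDA-MB-231 groups alone; with no filter on low counts the adjusted p were 0.000166 and 0.000433.

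Differences below are log2 effects in MDA-MB-453 minus those in MDA-MB-231. Those of genes near 0 after treatment depend on the prior count. Cell cycle genes differed by −6.61 (PLK1), −6.22 (MYBL2), −5.85 (RRM2), −4.74 (E2F2) and −4.72 (CCNA2), having fallen in both lines, and MCM10, at 0 there, differed at an adjusted p of 9.98e-16. Of the repressor subunits, RBL1 differed by −1.78, TFDP1 by −0.55 and LIN52 by 1.31. Uracil and abasic site genes differed by −3.58 (EXO1), −1.58 (LIG1), −1.08 (DUT) and 0.51 (PARP1). Interferon-stimulated genes differed by −4.20 (OAS3), −2.85 (UBE2L6) and −2.81 (ISG20), and PSMB9, with 4 counts and 0 in MDA-MB-453, at an adjusted p of 0.0241. IFNGR1 differed by 1.55 (adjusted p = 0.0489), a call that was lost with DESeq2 size factors. Restriction factors outside the family differed by −1.54 (IFITM2), −1.27 (SLFN5), −1.12 (RNASEH2B) and 1.59 (ZC3HAV1). The NF-kB list gene PRKCA differed by −2.61, and the cluster's neighbours NPTXR and SYNGR1 by −1.81 and −1.80.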

How the results depend on the processing

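APOBEC3F kept its calls with abemaciclib and with the combination in MDA-MB-231, and its differences between the lines, under every alternative that gave a value. The APOBEC3C change with abemaciclib ran from 0.32 to 0.53 (log2) over single-library omissions, with 2 of 6 losing the call. That of the combination against DMSO ran from 0.21 to 0.41, with 2 of 6 gaining it, and was called at 0.31 with only the groups compared. The adjusted p of the APOBEC3F interaction was 0.0276 with no filter and ran from 0.0382 to 0.27 over omissions. The permutation p of APOBEC3B in MDA-MB-231 ran from 0.03 (without fulvestrant replicate 3) to 0.19. The cause was not tested.

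Counts of all genes called moved in small comparisons. In MDA-MB-231, fulvestrant against DMSO had 14 with no filter and 0 to 205 (without fulvestrant replicate 1) over omissions. The combination against abemaciclib had 3, and 5 with DESeq2 size factors, 49 with no filter, 9 without mitochondrial genes, 14 in the model of 24 libraries, 55 with DESeq2, 30 with only the groups compared and 0 to 96 (without abemaciclib replicate 3) over omissions. The interaction had 14, and 132 with no filter, 8 in the model of 24 libraries, 65 with DESeq2 and 2 to 449 (without fulvestrant replicate 1) over omissions. In MDA-MB-453, fulvestrant against DMSO had 156, and 269 with no filter, 39 in the model of 24 libraries, 294 with DESeq2 and 5 to 786 (without fulvestrant replicate 3) over omissions. The combination against abemaciclib had 273, and 83 to 518 (without abemaciclib replicate 1) over omissions, and the interaction had 421, with 249 in the model of 24 libraries and 191 to 873 (without fulvestrant replicate 3) over omissions.

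Replicate numbers did not pair the samples: deviations of same-numbered libraries correlated at −0.195 to 0.0583 (MDA-MB-231) and −0.175 to 0.0587 (MDA-MB-453), with 0 of 18 pairs over 0.1 in each. A replicate block changed no call of a member, and took the MDA-MB-231 interaction from 14 to 6 genes. Depth limits the members under the filter; no difference below the floor was detectable.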
